A study of Mus musculus with 8 samples.

Results

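The genes of the unfolded protein response and of protein folding in the endoplasmic reticulum (ER) were followed in the fetal mouse brain after prenatal stress. The group was a list of 38 genes set by name, but chosen with earlier results of these data known. All 38 were found among the 54752 genes of the count tables and among the 17865 genes tested. They comprised 10 sensors and transcription factors of the response with the enzymes that process them, 10 chaperones and co-chaperones of the ER lumen, 6 lectin chaperones and disulfide isomerases, 9 genes of ER-associated degradation and 3 genes of the translocon and ER membrane. In the "Stress" group, pregnant C57BL/6 dams (C57BL/6Slac in the methods of the study) received chronic unexpected mild stress (CUMS), a changing series of mild stressors, from the first week of pregnancy until the day before collection. The dams of the "Control" group stayed in their home cages. All fetuses were wild type and their brains were taken at E15.5. The analysis covered 4 control brains (F36, F37, M30 and M31) and 4 stress brains (F34, F35, M28 and M29), where F marks a female and M a male, with 1 RNA-seq library of poly(A) RNA per brain. Each library held between 25320109 and 29105710 counts, and a gene of the list between 24 and 13534 counts in a brain. The sources differ on the tissue, which the labels call brain, the design text whole brain and the library table of the study only a part of a whole brain. According to that table, the 4 control brains were littermates and the 4 stress brains came from 1 other litter. Litter and stress therefore cannot be told apart here, and the p-values measure the spread between littermates.

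The ER folds proteins that a cell secretes or places in its membranes. When unfolded protein accumulates there, the sensors IRE1, PERK and ATF6 set off the unfolded protein response: IRE1 splices the mRNA of XBP1, PERK slows translation and favours ATF4, and ATF6 is cut in the Golgi to release a transcription factor. XBP1 and ATF6 raise transcription of chaperones, folding enzymes and degradation genes, many of which carry an ER stress element (ERSE) in their promoters. Neurons in the developing brain make large amounts of membrane and secreted protein, and the response has been tied to their differentiation.

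Several ER chaperones and folding enzymes had less mRNA in the stressed brains. Of the 38 genes, 14 were lower after stress (36.8% of them, where 7.27% of all genes tested were called lower), 2 were higher (6.49% of all genes tested were called higher), and 22 were not called. Calls rest on edgeR's quasi-likelihood test over all genes with sex in the model, at a Benjamini-Hochberg adjusted p under 0.05. The 14 genes were Xbp1, Hspa5, Hsp90b1, Hyou1, Dnajc3, Sdf2l1, Manf, Creld2, Calr, Canx, Pdia3, Pdia4, Pdia6 and Syvn1, and the 2 higher genes were Dnajc10 and Mbtps1. The falls were small, between 6.32% (Pdia3) and 25.1% (Sdf2l1), and 6 of the 14 exceeded 15%. The median Log2FC (log2 fold change, stress vs. control) was -0.066 over the 38 genes and 0.0015 over all genes tested. Of the 38 genes 28 lay below 0, and of all 17865 genes tested 8834 did. Each stress brain was below each control brain in 13 of the 38 genes, all of them among the 14 lower genes. This was so for 8.22% of all genes tested. The opposite, each stress brain above each control brain, held for 1 of the 38 genes and for 8.2% of all genes. The summed level of all 38 genes was 4157 to 4280 CPM (counts scaled to the size of the library) in controls and 3872 to 3991 CPM after stress. The 14 genes were picked as lower in these same brains, so a lower sum follows from that choice. Their sum was 2571, 2529, 2650 and 2636 CPM in controls F36, F37, M30 and M31. In stress F34, F35, M28 and M29 it was 2254, 2369, 2327 and 2372 CPM. Stress F34 had the lowest value of the 8 brains in 7 of the 14 genes.

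**Figure D1:**
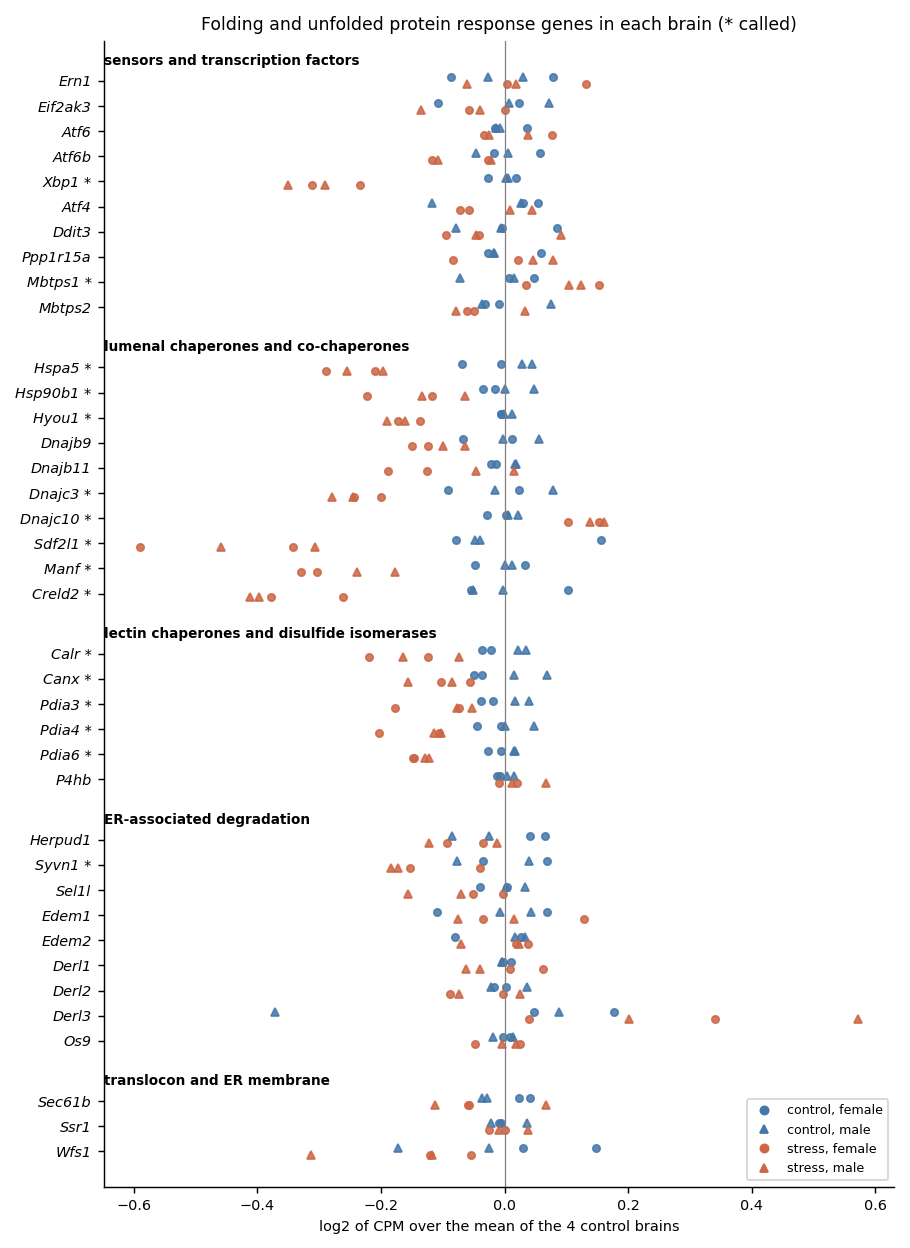
Level of each of the 38 genes in each brain, as log2 of its CPM over the mean CPM of the 4 control brains (horizontal axis), by role; circles are females, triangles males, blue control and red stress, and an asterisk marks a called gene. The stress brains lie left of all control brains for Xbp1, Hspa5, Manf, Creld2 and Sdf2l1 and right of them for Dnajc10, while the groups overlap for Ern1, Atf6 and Atf4.

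A promoter element held by 8 of the 14 lower genes is shown before the values. In RefSeq promoter windows of 250 bases before and 50 bases after the transcription start (build GRCm38.p6, the sequence of mm10), the ERSE was searched on both strands as CCAAT, any 9 bases and CCACG. It was present in 0.119% of 32851 windows and in 0.137% of the 27025 genes with a window. A window was given for 34 of the 38 genes, and not for Atf6, Hyou1, Manf and Derl1. Of the 12 lower genes with a window 8 held the ERSE, and Xbp1, Sdf2l1, Pdia3 and Pdia4 did not. Of the other 22 genes with a window 1 held it, which was Derl3. The holders other than Syvn1 and Derl3 were lumenal chaperones, lectin chaperones or disulfide isomerases. Most of the lower genes have these roles, so element and role were not separated. The elements are printed with 5 bases on either side, read on the strand on which CCAAT comes before CCACG. Capitals mark the element, the position is that of the whole printed stretch, and the distance is that of the element's ends from the RefSeq start.
Hspa5 (chr2:34772020-34772048, plus strand, 65 to 47 bases upstream): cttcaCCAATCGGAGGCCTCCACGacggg
Hsp90b1 (chr10:86705633-86705661, minus strand, 212 to 194 bases upstream): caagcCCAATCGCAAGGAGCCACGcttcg
Hsp90b1 (chr10:86705528-86705556, plus strand, 107 to 89 bases upstream): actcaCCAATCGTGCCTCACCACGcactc
Dnajc3 (chr14:118937822-118937850, plus strand, 105 to 87 bases upstream): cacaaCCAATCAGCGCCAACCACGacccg
Creld2 (chr15:88819515-88819543, minus strand, 126 to 108 bases upstream): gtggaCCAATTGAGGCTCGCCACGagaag
Calr (chr8:84847070-84847098, plus strand, 162 to 144 bases upstream): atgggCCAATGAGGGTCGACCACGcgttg
Canx (chr11:50325795-50325823, minus strand, 145 to 127 bases upstream): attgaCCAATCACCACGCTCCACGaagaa
Pdia6 (chr12:17266486-17266514, plus strand, 98 to 80 bases upstream): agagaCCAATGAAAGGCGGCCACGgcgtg
Syvn1 (chr19:6046527-6046555, plus strand, 44 to 26 bases upstream): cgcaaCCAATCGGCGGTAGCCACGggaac
Derl3 (chr10:75893237-75893265, minus strand, 156 to 138 bases upstream): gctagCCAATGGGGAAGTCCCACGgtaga

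In the 10 elements of these 9 genes, 6 or 7 of the 9 spacer bases were G or C. The share of G and C in other promoter sequence was not counted. All 10 elements lay upstream of the RefSeq start. The element of Hspa5 also fell inside the gene as the count tables' annotation gives it, since that annotation has a start farther upstream. In Hsp90b1, Creld2, Calr and Derl3 the element, or 1 of the 2 in Hsp90b1, read on the strand opposite to the gene.

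Other motifs were less selective or rarer. With the last box relaxed to CCANG, the element was in 0.314% of windows and was also found in Sel1l. The ERSE-II, ATTGG and CCACG with 1 base between them, was in 0.0365% of windows. It was held by Herpud1 and Dnajb11, neither of which was called, and only that of Herpud1 lay upstream of the start. TGACGTGG, a site described for ATF6 and XBP1, was in 0.676% of windows and in none of the genes. ACGTG, which TGACGTGG contains, was in 19.6% of windows and 21.8% of all genes with a window. Among the listed genes with a window, ACGTG was in 14 of 34, and in 4 of the 12 lower ones. CCAAT alone was in 37.4% of windows and 41.1% of all genes with a window. It was in 25 of the 34 listed genes, and in 11 of the 12 lower ones. A match shows the letters in the window and not that a factor binds there.

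Across the genome, 37 genes held the ERSE, and 22 of these were tested. The 9 that belong to the 38 genes had a median Log2FC of -0.14, with 8 lower and none higher. The 25 genes of the list whose windows lacked the element had a median of -0.04, with 4 lower and 2 higher. Outside the list, the median over 13 genes with the element was -0.02. There, Adcy3, an adenylate cyclase, was lower (Log2FC -0.19 ± 0.05 SE, adjusted p = 0.0118), and Hnrnpa3 and Pan2, which act in RNA processing and decay, were higher (0.14 ± 0.03 and 0.16 ± 0.03, adjusted p = 5.15e-04 and 0.00187).

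**Figure D2:**
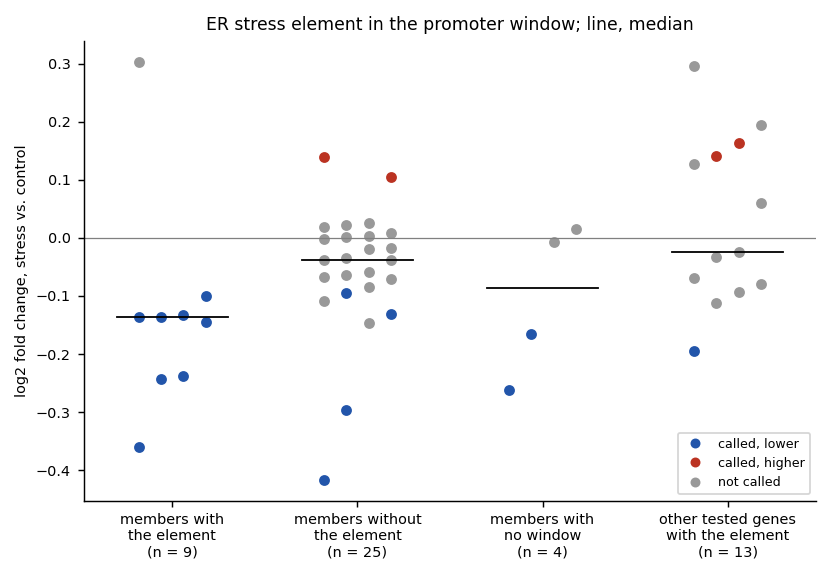
Log2FC (vertical axis, stress vs. control) of genes with and without the ERSE in the promoter window; each point is a gene, blue called lower, red called higher, grey not called, lines are medians, and the 4 listed genes with no window stand apart. Of the 9 listed genes with the element 8 are blue, and of the 13 other tested genes with it 1 is blue and 2 are red.

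Among the sensors and transcription factors, only Xbp1 fell. Xbp1 (ENSMUSG00000020484.18, chr11:5520659-5525893, mm10) encodes the factor that IRE1 activates by splicing. Its level was 96.7, 93.8, 95.8 and 95.6 CPM in controls F36, F37, M30 and M31, and 76.9, 81.2, 74.9 and 78.0 CPM in stress F34, F35, M28 and M29, an order kept for all values below. The groups did not overlap, at 95.5 ± 1.24 CPM in controls and 77.8 ± 2.63 CPM after stress (mean ± SD, n = 4 each). The Log2FC was -0.30 ± 0.03 (SE), a fall of 18.6%, with an adjusted p of 1.25e-06, the smallest of the 38 genes. Counts per gene hold spliced and unspliced Xbp1 together, so the splicing by IRE1 is not seen here.

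The 3 sensors were not called. Ern1, which encodes IRE1, was at 21.5, 24.1, 22.4 and 23.3 CPM in controls and 25, 22.9, 23.1 and 21.9 CPM after stress, with a Log2FC of 0.02 (95% CI -0.08 to 0.13). Eif2ak3, the PERK gene, was at 32.5, 35.6, 35.2 and 36.8 CPM in controls and 35, 33.7, 34.1 and 31.9 CPM after stress (Log2FC -0.06, 95% CI -0.15 to 0.03). Atf6 was at 33.0, 34.2, 33.0 and 33.2 CPM in controls and 35.2, 32.6, 32.8 and 34.3 CPM after stress (Log2FC 0.02, 95% CI -0.07 to 0.10). In each of these genes the groups overlapped.

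Nor were the factors downstream of PERK called. Atf4, which drives amino acid and stress genes, was at 118, 120, 118 and 107 CPM in controls and 110, 111, 117 and 120 CPM after stress (Log2FC -0.02, 95% CI -0.09 to 0.06). Ddit3 (CHOP), a pro-apoptotic factor induced by strong ER stress, was at 12.5, 11.7, 11.7 and 11.1 CPM in controls and 11.4, 11, 11.4 and 12.5 CPM after stress (Log2FC -0.02, 95% CI -0.16 to 0.12). For both, control and stress brains overlapped. Over Ern1, Eif2ak3, Atf6, Atf4 and Ddit3, the intervals ran from -0.16 to 0.13, so that a fall as large as that of Xbp1 lay outside them. Ddit3 shares 10.9% of its exon bases with other genes and Mbtps2 28.4%, so that reads there could be assigned either way or lost. Ppp1r15a, which reverses the PERK block of translation, Atf6b, a relative of Atf6, and Mbtps2, a protease that cuts ATF6, were not called.

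Mbtps1, which encodes the protease that makes the initial cut of ATF6 in the Golgi, rose. It was at 113, 117, 114 and 107 CPM in controls and 125, 116, 123 and 121 CPM after stress, and stress F35 lay below control F37, so that the groups overlapped. The Log2FC was 0.11 ± 0.03 (adjusted p = 0.0293). The call was lost when any of control F36, control M31, stress F34, stress M28 or stress M29 was left out (adjusted p of up to 0.124).

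**Figure D3:**
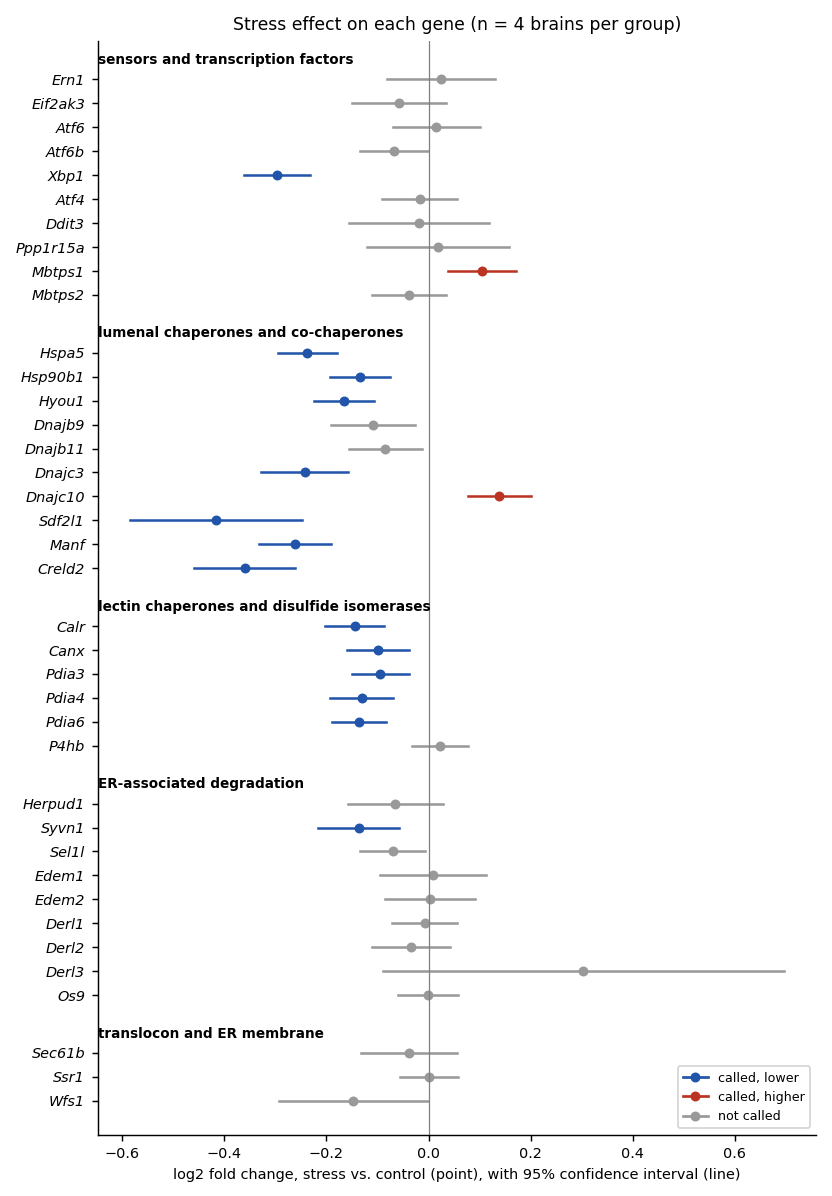
Log2FC (horizontal axis) of each of the 38 genes with its 95% confidence interval from edgeR, n = 4 brains per group; blue genes were called lower, red higher and grey not called. The intervals of 5 of the 6 lectin chaperones and disulfide isomerases and of 7 of the 10 lumenal chaperones are blue, against 1 of 9 for ER-associated degradation.

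Of the 10 lumenal chaperones and co-chaperones, 7 were lower and 1 was higher, with a median Log2FC of -0.20. Hspa5 encodes BiP, the Hsp70 chaperone of the ER, which also holds the sensors inactive. Hspa5 (ENSMUSG00000026864.13, chr2:34771970-34777547) was at 365, 350, 378 and 374 CPM in controls and 300, 317, 307 and 320 CPM after stress. Every stress brain was below every control brain. With 367 ± 12.7 CPM in controls and 311 ± 9.01 CPM after stress, the Log2FC was -0.24 ± 0.03 (adjusted p = 4.71e-06).

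Dnajc3, Hyou1 and Sdf2l1, which work with BiP, also fell. Dnajc3 (p58IPK), a J-domain partner that also restrains PERK, was at 47.3, 43.6, 46.0 and 49.1 CPM in controls and 39.3, 40.5, 39.2 and 38.3 CPM after stress (Log2FC -0.24 ± 0.04, adjusted p = 2.48e-04). Hyou1, the exchange factor that recharges BiP with ATP, was at 116, 116, 116 and 117 CPM in controls and 103, 106, 104 and 102 CPM after stress (Log2FC -0.17 ± 0.03, adjusted p = 2.63e-04). The groups of both genes stayed apart, and the control brains of Hyou1 had an SD of only 0.680 CPM. Sdf2l1 (chr16:17130138-17132383), which forms a complex with ER J-proteins, had the largest fall of the 38 genes, 25.1%, and the lowest control level of these 7 per kilobase of exon (8.91 CPM per kb). It was at 11, 9.34, 9.54 and 9.6 CPM in controls and 7.79, 6.56, 7.18 and 7.98 CPM after stress (Log2FC -0.42 ± 0.08, adjusted p = 0.00101). All 4 stress brains were again below the controls, and control F36 stood above the other controls.

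Manf and Creld2, secreted proteins of the ER lumen, fell by 16.6% and 22.1%. Manf, a neurotrophic factor that binds BiP, was at 76.9, 72.7, 75.8 and 75.2 CPM in controls and 59.8, 60.9, 63.7 and 66.4 CPM after stress (Log2FC -0.26 ± 0.03, adjusted p = 1.55e-05). Creld2 (chr15:88819646-88826683), a lumenal protein with reported disulfide isomerase activity, was at 31.1, 27.9, 28.9 and 28 CPM in controls and 24.2, 22.3, 21.8 and 22.0 CPM after stress (Log2FC -0.36 ± 0.05, adjusted p = 1.83e-05). Control and stress brains did not overlap in either gene. Hsp90b1 (GRP94), the Hsp90 of the ER, was at 312, 317, 331 and 320 CPM in controls and 274, 295, 292 and 306 CPM after stress (Log2FC -0.13 ± 0.03, adjusted p = 0.00218). The groups were apart, with stress M29 nearest to the controls, but 15.7% of the exon bases of Hsp90b1 are shared with other genes.

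Dnajc10 (ERdj5), a J-protein with reductase activity that opens disulfide bonds of proteins due for degradation, was the exception. It was at 78.3, 76.7, 78.5 and 79.4 CPM in controls and 84.0, 86.9, 86.1 and 87.5 CPM after stress. Every stress brain lay above every control brain, and the Log2FC was 0.14 ± 0.03 (adjusted p = 0.00255). The J-proteins Dnajb9 (Log2FC -0.11 ± 0.04, adjusted p = 0.071) and Dnajb11 (-0.08 ± 0.03, adjusted p = 0.107) did not pass the test.

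**Figure D4:**
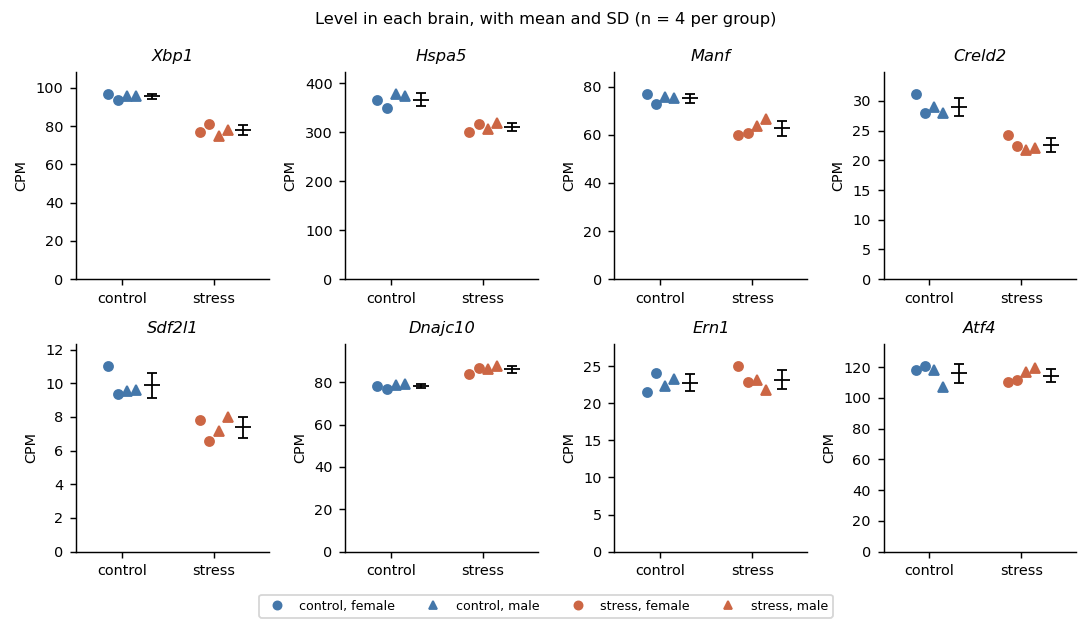
CPM (vertical axis, from 0) of 8 of the genes in each control and stress brain; circles are females and triangles males, and the black mark and bar are the mean and SD of 4 brains. Xbp1, Hspa5, Manf, Creld2 and Sdf2l1 are lower and Dnajc10 is higher in all 4 stress brains than in any control brain, while Ern1 and Atf4 overlap.

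Of the lectin chaperones and disulfide isomerases, 5 of 6 were lower, by smaller amounts (median Log2FC -0.12). Abundant genes stood among them: per kilobase of exon, the control mean was highest for Calr (163 CPM per kb), then Pdia3 (100.1), Hspa5 (86.7), Canx (80.4) and Hsp90b1 (79.4). Calr, the soluble lectin calreticulin, was at 461, 457, 480 and 476 CPM in controls and 402, 430, 418 and 445 CPM after stress (Log2FC -0.14 ± 0.03, adjusted p = 8.46e-04). Canx, its membrane-bound partner calnexin, was at 365, 368, 381 and 396 CPM in controls and 352, 363, 356 and 339 CPM after stress (Log2FC -0.10 ± 0.03, adjusted p = 0.0242). In both genes the groups were apart, though in Canx only by the gap between stress F35 at 363 CPM and control F36 at 365 CPM.

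The disulfide isomerases form and rearrange disulfide bonds, and Pdia3 acts on the glycoproteins that Calr and Canx hold. Pdia3 was at 310, 306, 323 and 318 CPM in controls and 278, 299, 298 and 303 CPM after stress (Log2FC -0.09 ± 0.03, adjusted p = 0.0204). Pdia4 was at 103, 101, 107 and 104 CPM in controls and 90.2, 96.5, 96.0 and 96.7 CPM after stress (Log2FC -0.13 ± 0.03, adjusted p = 0.00439). Pdia6, which also binds IRE1, was at 214, 211, 217 and 217 CPM in controls and 194, 194, 197 and 196 CPM after stress (Log2FC -0.14 ± 0.03, adjusted p = 7.26e-04). The groups stayed apart in all 3 genes. P4hb, which encodes PDI itself and a subunit of prolyl hydroxylase, was at 204, 204, 208 and 206 CPM in controls and 204, 208, 215 and 207 CPM after stress (Log2FC 0.02, 95% CI -0.03 to 0.08).

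ER-associated degradation, which returns misfolded proteins to the cytosol for destruction, changed in 1 of its 9 genes over all brains. Syvn1 (HRD1), its ubiquitin ligase, was at 61.5, 57.3, 60.3 and 55.6 CPM in controls and 52.8, 57.0, 51.7 and 52.1 CPM after stress (Log2FC -0.14 ± 0.04, adjusted p = 0.0181). Stress F35 lay above control M31, so that the groups overlapped. Sel1l, which holds Syvn1 in its complex, had a Log2FC of -0.07 ± 0.03 (adjusted p = 0.139) and was called lower in males, and Herpud1, a membrane component, one of -0.06 ± 0.04 (adjusted p = 0.386). Edem1, Edem2 and Os9, which read the glycans of misfolded proteins, and Derl1 and Derl2, of the membrane channel, were between -0.03 and 0.01. Derl3 was near the limit of detection, with as few as 24 counts in a brain, and its Log2FC of 0.30 had an SE of 0.19. Of the translocon and membrane genes, Sec61b and Ssr1, which serve entry into the ER, and Wfs1, a membrane protein whose loss causes Wolfram syndrome, none was called by edgeR or DESeq2, and Wfs1 had the lowest value (Log2FC -0.15 ± 0.07, adjusted p = 0.181). Leaving Derl3 aside, the genes not called were between -0.15 and 0.02 with an SE of 0.03 to 0.07. Of the 22, Atf6b, Dnajb9, Dnajb11, Sel1l and Wfs1 had an unadjusted p under 0.05, all 5 below 0. With called genes included, 2439 of all 17865 genes tested were lower and 2361 higher at that threshold.

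All 14 lower genes had a Log2FC below 0 in both sexes, and 7 of them were called in both. The 14 were picked as lower over these same brains, so the shared sign is no separate check. With 2 stress and 2 control brains per sex, 9 of the 38 genes were called lower in females (2.26% of all genes tested) and 10 in males (3.83%), and Xbp1, Hspa5, Hyou1, Manf, Creld2, Calr and Pdia6 in both. The 10 in males included Sel1l (Log2FC -0.13, adjusted p = 0.0434), which was not called over all brains, and Pdia3, Pdia4 and Syvn1 were called in neither sex. None was called higher in females by edgeR (1.66% of all genes) or DESeq2, with 1 at an unadjusted p under 0.05, and Dnajc10 was called higher in males (2.96% of all genes). These counts moved with single brains: in females 1 gene was called lower without control F36, 5 without control F37 and 5 without stress F34. In males 3 were called lower without control M31 and 5 without stress M29, and the count higher was 0 without control F36, control F37, control M31, stress M28 or stress M29 and 2 without stress F34 or stress F35. In such fits a lone brain is assumed to vary like the others. For Xbp1 the Log2FC was -0.27 ± 0.04 in females and -0.32 ± 0.04 in males. Manf had -0.31 ± 0.05 in females and -0.21 ± 0.05 in males. For Dnajc3 the values were -0.19 ± 0.06 in females and -0.29 ± 0.06 in males.

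No sex by stress interaction was called among the 38 genes, in edgeR or DESeq2 (0.0056% of all genes were called), and the smallest adjusted p was 0.592. At an unadjusted p under 0.05 there were 3 genes. Canx had a Log2FC of -0.04 ± 0.04 in females and -0.16 ± 0.04 in males, a difference of -0.13 (95% CI -0.23 to -0.02, adjusted p = 0.691). Sel1l had -0.01 ± 0.04 and -0.13 ± 0.04 (adjusted p of the difference 0.764). Atf4 was below 0 in females, at -0.11 ± 0.04, and above 0 in males, at 0.07 ± 0.04 (adjusted p = 0.592). The intervals were wide for the low genes: in Sdf2l1 the difference between the sexes was 0.16 with a 95% CI of -0.17 to 0.50.

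**Figure D5:**
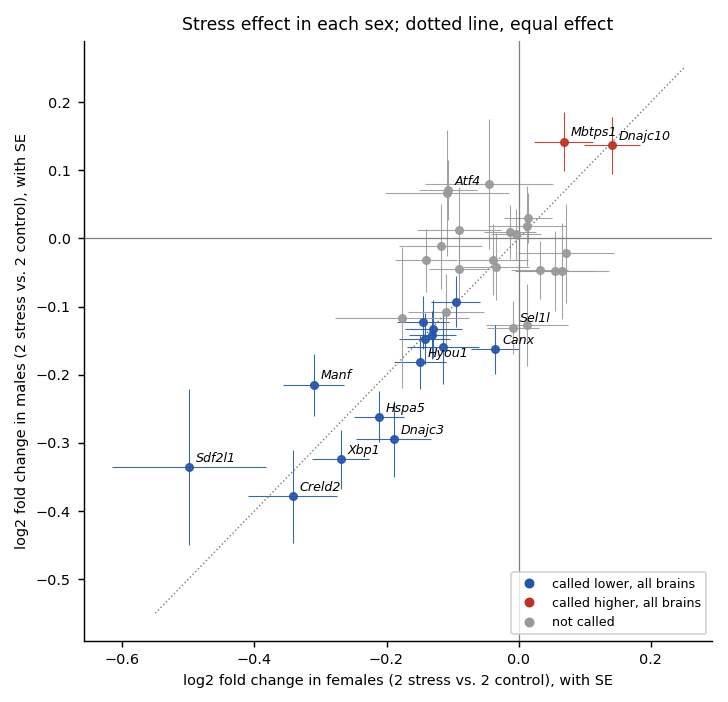
Log2FC with its SE in females (horizontal axis) and in males (vertical axis), 2 stress against 2 control brains each, for 37 of the 38 genes (Derl3, with an SE of 0.27 in both sexes, is left out); the dotted line marks equal effects. All 14 blue genes lie below 0 in both sexes, but they were picked as lower over these same brains.

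Beyond the 38 genes, 5 further lists of the ER pathway were counted, with 125 of 126 genes tested. There 6 were lower (4.8%, against 7.27% of all genes tested) and 8 higher (6.4%, against 6.49%), with a median Log2FC of -0.02 and 111 not called. Neither share exceeded that of all genes. Of 32 other folding enzymes, Creld1, a paralogue of Creld2, was lower (49.2 ± 2.77 CPM in controls, 42.1 ± 0.749 after stress, Log2FC -0.23 ± 0.04, adjusted p = 4.63e-04), and Sil1, Sec63, Ganab and Prdx4 were higher. Prdx4, a peroxiredoxin of the ER, was at 23.4 ± 0.819 CPM in controls and 27.1 ± 1.33 after stress (Log2FC 0.21 ± 0.05, adjusted p = 0.00395). Sil1 encodes an exchange factor of BiP, as Hyou1 does. Over the 5 lists, DESeq2 called 3 genes lower and 6 higher, and Sil1 (adjusted p = 0.0689) and Sec63 (0.0648) were not among them. The lower count was 3 without control M30 or stress F34 and 2 without stress M29, and the higher count was 4 without control F37 or stress M29.

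Among 26 genes of the translocon, signal peptidase and oligosaccharyltransferase, Sec11c, Rpn1 and Magt1 were lower and none was higher by edgeR or DESeq2 (1 at an unadjusted p under 0.05). Of the lower genes, DESeq2 called only Rpn1. Rpn1, a subunit of the oligosaccharyltransferase, had a Log2FC of -0.10 ± 0.03 (adjusted p = 0.0174) and Magt1, another, -0.14 ± 0.05 (adjusted p = 0.0455). Of 23 other degradation genes none was lower by edgeR or DESeq2 (2 at an unadjusted p under 0.05), and Erlec1, a lectin (Log2FC 0.21 ± 0.05, adjusted p = 0.0027), and Nploc4, a cofactor of the p97 ATPase (0.12 ± 0.03, adjusted p = 0.0129), were higher. Of 20 other signalling genes, Map3k5 and Tmbim6 were lower, and Nfyb was higher. Map3k5 was not called by DESeq2. Nfyb, a subunit of the factor that binds CCAAT, had a Log2FC of 0.14 ± 0.03 (adjusted p = 0.00443), and Tmbim6, a membrane protein that restrains IRE1, -0.09 ± 0.03 (adjusted p = 0.023). Among 24 genes of transport to the Golgi, Sec23b, of the COPII coat, was higher (Log2FC 0.13 ± 0.04, adjusted p = 0.0141) and none was lower by edgeR or DESeq2 (1 at an unadjusted p under 0.05).

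Bulk RNA of brain tissue does not separate fewer cells of a type from less RNA per cell. Of 8 lists of 10 cell type markers, those of endothelial cells and of peptidergic secretory neurons summed lower in each stress brain than in each control brain. The endothelial markers summed to 178 to 194 CPM in controls and 155 to 166 CPM after stress, with 6 lower by edgeR and 2 by DESeq2. For all lists, the background is 7.27% lower and 6.49% higher by edgeR over all 17865 genes tested. DESeq2 called 911 of these genes lower and 748 higher. A Log2FC below 0 was found in 8834 of the 17865 genes. Markers of peptidergic neurons (granins, hormone convertases and their partners) summed to 1367 to 1394 CPM in controls and 1298 to 1347 CPM after stress. Of these 10, 8 had a Log2FC below 0, with 3 called lower by edgeR and 2 by DESeq2. Scg3 was above 0 with the groups apart (Log2FC 0.08 ± 0.03, adjusted p = 0.061). Cpe, which was not called (adjusted p = 0.145), alone gave a mean of 643 CPM in controls and 618 CPM after stress.

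Neuronal markers summed to 7406 to 7654 CPM in controls and 7182 to 7558 CPM after stress. Of these 10 markers, 9 had a Log2FC below 0, with 6 called lower by edgeR and 4 by DESeq2. Those of radial glia, the dividing progenitors, summed to 1684 to 1793 CPM in controls and 1736 to 1873 CPM after stress, with 5 higher by edgeR and 4 by DESeq2. Both pairs of ranges overlapped. Microglial markers had none called by edgeR or DESeq2, or at an unadjusted p under 0.05 (43.7 to 48.0 CPM in controls, 41.3 to 47.8 after stress). Erythroid markers had 1 lower and 2 higher by edgeR (366 to 415 CPM in controls and 373 to 388 after stress). Hbb-bs was lower (151 ± 11.3 CPM in controls, 136 ± 3.24 after stress, adjusted p = 0.00976). Hbb-y (3.36 ± 0.824 and 6.00 ± 0.765 CPM, adjusted p = 1.2e-04) and Hba-x (1.73 ± 0.358 and 3.71 ± 0.558 CPM, adjusted p = 2.21e-05) were higher. Both weigh little in the sum, and their groups were apart.

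Markers of the choroid plexus, which makes cerebrospinal fluid, and of the meninges, which cover the brain, varied between brains. Choroid plexus markers summed to 66.4 to 80.0 CPM in controls and 73.8 to 106 CPM after stress, highest in stress F34, with 2 higher by edgeR and 1 by DESeq2. Meningeal fibroblast markers summed to 47.8 to 58.5 CPM in controls and 46.9 to 89.6 CPM after stress, highest in stress M28, with 1 lower and 3 higher by edgeR and 1 lower by DESeq2. No marker of the 8 lists was at 0 in all brains, though Folr1, Kcnj13, Foxc2, Slc6a13, Slco1a4 and Hbb-bh1 stayed under 1 CPM in each. The part of these cell types in the changes of the folding genes was not tested.

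Without stress F34 and stress M28, 9 of the 14 genes were still called lower, namely Xbp1, Hspa5, Hyou1, Dnajc3, Sdf2l1, Manf, Creld2, Calr and Pdia6, and the median Log2FC of the 38 genes was -0.07. The 5 others were Hsp90b1 (Log2FC -0.09, adjusted p = 0.07), Canx (-0.10, adjusted p = 0.0741), Pdia3 (-0.06, adjusted p = 0.223), Pdia4 (-0.10, adjusted p = 0.0735) and Syvn1 (-0.10, adjusted p = 0.18). Leaving out single brains, 11 of the 14 stayed called in all 8 fits. Canx was lost without control M30, control M31, stress M28 or stress M29 (adjusted p of up to 0.145). Pdia3 was lost without control F36, control F37, control M30, stress F34 or stress M28 (up to 0.0853). Syvn1 was lost without control F36, control M30, stress F34, stress M28 or stress M29 (up to 0.1).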

How the data were processed

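RNA-seq of 8 E15.5 brains was analysed. Reads were cleaned by the authors (Trim Galore), placed on mm10 by TopHat2 2.1.1 and summed over the exons of GENCODE genes by featureCounts 1.6.3. The deposited values are raw, unscaled counts per gene, and the methods state no strand setting for them. Groups, sexes and age came from the labels. The paper's model held a batch term, and no batch is given for these libraries.

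From the counts, genes were kept by filterByExpr (minimum count 10, by group), scaled by TMM and tested with edgeR 4.0.16 (glmQLFit, glmQLFTest, R 4.3.3) on sex and group. A model of the 4 sex and group means gave the effect in each sex and the interaction. P-values were adjusted over 17865 genes by the Benjamini-Hochberg method. Log2 CPM used a prior count of 2 and decided whether groups overlapped. DESeq2 1.42.0 was an alternative, beside other scalings, no filter, no sex covariate and each brain left out. The tests were tested on simulated data.

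The genes, lists and motifs were chosen with earlier results of these data known, and the comparison of all genes holding the ERSE was added after the motif matches were seen. Genes named in full are all called genes, Xbp1 and 5 further sensors and factors, and the 2 called genes with the smallest p of each other ER list (1 in ER to Golgi transport, which had only 1); P4hb, Adcy3, Hnrnpa3, Pan2 and Sil1 were chosen after their values were seen. Promoter windows are from RefSeq. Protein sequences were not used here.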

Additional observations from a re-analysis of the deposited data

Results flagged for a closer look

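Within the groups of 4 brains, 76 in all (38 genes in 2 groups), 6 single values stood far from the other 3 of their group by Dixon's criterion, where chance flags about 1 in 20 groups. Control F36 was the high value of Ppp1r15a (10.6 CPM), Sdf2l1 (11 CPM) and Derl1 (79.6 CPM). Control F37 was the high value of Atf6 (34.2 CPM) and the low value of Edem2 (33 CPM). Stress F34 was the low value of Pdia4 (90.2 CPM). Sdf2l1 and Pdia4 were called lower after stress, and both stayed called when the brain in question was left out. No explanation of these values was tested.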

How the results depend on the processing

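Under DESeq2's Wald test, DESeq2 size factors, upper-quartile normalization and no filter on low counts, 14 genes of the 38 were called lower and 2 higher, as in the main test, and without the sex covariate 12 and 2. All 16 called genes were also called by DESeq2. At an unadjusted p under 0.05, 19 were lower and 2 higher, where 2439 and 2361 of all 17865 genes tested were. Leaving out 1 brain gave 11 to 14 lower and 1 to 2 higher genes. An alternative chosen after seeing the data left out stress F34 and stress M28, which had the highest choroid plexus and meningeal marker sums. It gave 9 lower and 1 higher gene of the 38, 5 lower genes in females, 0 higher in males and 3 lower genes in the other ER lists. For these lists, DESeq2 called 3 lower where edgeR called 6, and 6 higher where edgeR called 8. Leaving out 1 brain gave 2 to 6 lower and 4 to 7 higher genes there. In females, leaving out 1 brain gave 1 to 9 lower genes, and in males 3 to 12 lower and 0 to 2 higher genes. The 1 gene higher in males was 0 under DESeq2, DESeq2 size factors and upper-quartile normalization. The cause of these shifts was not tested. No called gene changed sign. Of 532 values of single genes under the alternatives, 505 kept their side of the threshold and 27, in 6 genes (Canx, Hsp90b1, Mbtps1, Pdia3, Pdia4 and Syvn1), lost the call. No paired analysis was possible because the groups share no replicate numbers. The exact permutation test of single genes (two-sided) cannot go below 0.0286 at this size, a value that 14 of the 38 genes reached (15 on plain library totals). These are the genes whose groups did not overlap, so the test is no separate check. Of all genes tested, 8.22% were apart and lower after stress, and 8.2% apart and higher. Differences in genes as low as Derl3 were not resolved at this depth.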
